A study of Rattus norvegicus with 18 samples.

Results

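Genes known to respond to glucocorticoid hormones were examined in neonatal rat ventricular cardiomyocytes after a short block of myosin II. They were picked by name from the 28909 genes of the deposited expression table, where gene names are in capitals: RASD1, DDIT4, PER1, SGK1, TSC22D3, FKBP5, KLF9 and ZBTB16, written below in the usual rat style, are 8 of the 9 listed. The remaining one, Nr3c1, the gene of the glucocorticoid receptor itself, is not analysed here. Rasd1 and Ddit4 were put on the list because they were higher after blebbistatin in these same libraries, so all 8 genes are described here without a test of their own. The question is whether Rasd1 and Ddit4 were higher alone or together with other genes of the response.

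Cells came from the ventricles of 1-day-old wild-type SD rats, were depleted of fast-attaching cells and were kept on collagen in medium with little serum. One group of 3 RNA libraries received the solvent DMSO and the other group of 3 received 25 µM blebbistatin, which inhibits the motor activity of myosin II, each for 0.5 h. The series' design text also gives a lower dose. No group received a glucocorticoid, and the labels do not mention hormone in the medium or serum. The other 12 of the 18 samples, chromatin immunoprecipitations and inputs, are not analysed here.

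Glucocorticoids enter the cell and bind a receptor held ready by heat shock protein chaperones, and the receptor then moves to the nucleus and binds DNA. Its targets include feedback inhibitors of the receptor, transcription factors, kinases and enzymes of fuel metabolism. In heart muscle the receptor is known for its part in maturation before birth and in the stress response. Several of these targets also answer to other inputs: Ddit4 to hypoxia, energy stress and the integrated stress response, and Per1, Sgk1 and Rasd1 to other signals such as cAMP or serum.

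The promoters of the 2 genes at the centre of the question are shown so that short sequences they share with the classical glucocorticoid targets, or lack, can be read from them. Both are RefSeq sequences of the GRCr8 build, from 250 bases before to 50 bases after a transcription start. Rasd1 lies at chr10:45267633-45267932 and Ddit4 at chr20:28436988-28437287, both on the minus strand. Capitals mark every match, on either strand, to the motifs given after them.
Rasd1: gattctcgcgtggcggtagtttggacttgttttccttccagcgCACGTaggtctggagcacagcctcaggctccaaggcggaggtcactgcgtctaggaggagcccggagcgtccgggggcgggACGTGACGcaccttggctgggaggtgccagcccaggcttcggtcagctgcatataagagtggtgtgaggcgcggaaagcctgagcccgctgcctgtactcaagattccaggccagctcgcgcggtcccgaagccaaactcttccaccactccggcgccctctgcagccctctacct
Ddit4: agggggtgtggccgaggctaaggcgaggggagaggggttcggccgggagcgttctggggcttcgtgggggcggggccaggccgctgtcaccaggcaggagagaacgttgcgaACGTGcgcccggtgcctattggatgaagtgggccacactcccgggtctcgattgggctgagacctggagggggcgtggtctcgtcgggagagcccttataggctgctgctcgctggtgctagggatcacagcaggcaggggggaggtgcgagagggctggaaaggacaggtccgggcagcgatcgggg

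The motifs searched were the palindromic glucocorticoid response element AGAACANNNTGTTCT, its single hexamer AGAACA (which lies inside the palindrome), the cAMP response element TGACGTCA, its core TGACG (inside that element), the hypoxia response core ACGTG and the C/EBP-ATF element TGATGCAA. Windows were matched by symbol for 7 of the 8 genes, 11 windows in all because Sgk1 and Tsc22d3 have several starts. None of the 11 windows held the palindrome, which 0.0149% of all 33469 RefSeq windows of this length held. None held the hexamer either, the classical targets Fkbp5, Per1 and Tsc22d3 included, while 20.7% of all windows held it. The Rasd1 window held the hypoxia core at 2 places and the cAMP core once, the latter overlapping a hypoxia core 123 bases before the start. The Ddit4 window held the hypoxia core once, 138 bases before the start. The hypoxia core was in 3 of the 11 windows (the third was Klf9) and in 19.3% of all windows. The cAMP core was also in 3 of the 11 (Rasd1, Klf9 and the Tsc22d3 window at chrX:109009985-109010284) and in 21.2% of all windows. A match describes the letters of this window and is not evidence of a bound site. A missing match likewise describes only the exact letters of this window. Sites farther from the start, or with other letters, were not searched.

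For a single library the deposited CPM is given, that is, reads of a gene scaled so that every library has the same total. Group means are CPM after a further between-library scaling, and changes are differences of log2(scaled CPM + 0.1) between blebbistatin and DMSO from a limma fit over all 15204 genes that passed a filter on low values. The spacing of the values corresponds to 59.6 to 63.3 M reads in each library. Whether libraries of the same group stem from independent cultures is not stated, and SDs and p-values therefore cover the spread among these libraries, which may be technical. DMSO replicate 1 was unlike the other 5: the main axis of variation, with 42% of the variance, placed it at -77.4 and the others between -3.04 and 34.6. The 14 measured cardiomyocyte markers summed to 32250 to 34510 CPM per library, and all 14 were detected. In DMSO replicate 1 that sum rested more on the myosin gene Myh7 (19640 against 11150 to 13110 CPM), while the troponin gene Tnnt2 was at 977.4 against 1304 to 1798 CPM. The 10 fibroblast markers summed to 33550 to 39020 CPM, of which Col1a1, a collagen of connective tissue cells, alone made 18800 to 24450 CPM, so RNA of other cells was present in both groups. In such bulk samples fewer cells of a type and less RNA per cell cannot be told apart.

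Rasd1 encodes a small Ras-like GTPase first found as a dexamethasone-induced gene. In the DMSO libraries it was at 1.34, 1.41 and 1.22 CPM, and in the blebbistatin libraries at 5.34, 4.36 and 4.38 CPM. All 3 treated libraries were above all 3 controls, and the controls lay close together. The values rest on 75 to 84 reads per control library and 270 to 330 per treated library. Exact Poisson 95% intervals, which cover counting error only, reached at most 1.74 CPM in the controls and began at 3.86 CPM in the treated libraries. The means were 1.34 ± 0.135 and 4.63 ± 0.483 CPM (SD, n = 3 each), a ratio of 3.45. The log2 fold change was 1.71 ± 0.22 (SE), rank 51 from the top among the 15204 genes. It stayed between 1.63 and 1.77 when each library was left out in turn, and was 1.77 without DMSO replicate 1.

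Ddit4 encodes REDD1, an inhibitor of the growth-promoting kinase complex mTORC1. It was at 16.7, 30.8 and 33.3 CPM with DMSO and at 47.8, 43.0 and 51.6 CPM with blebbistatin. The groups did not overlap, but DMSO replicate 1 was far below the other 2 controls. The means were 27.0 ± 7.88 and 46.8 ± 3.89 CPM (SD, n = 3 each), a ratio of 1.73. The log2 fold change was 0.84 ± 0.23 (SE), rank 310 of the 15204 genes. Without DMSO replicate 1 it was 0.57 ± 0.12, and the 3 treated libraries were still above both remaining controls. That library therefore carried part of the difference but not its direction.

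Per1, a circadian repressor and a rapid glucocorticoid target in many tissues, went the other way. It was at 22.6, 25.3 and 23.6 CPM with DMSO and at 20.2, 19.9 and 18.3 CPM with blebbistatin. All 3 treated libraries were below all 3 controls, by a small margin. The means were 24.2 ± 0.982 and 19.2 ± 1.00 CPM (SD, n = 3 each), and the log2 fold change was -0.33 ± 0.13 (SE). Unlike Ddit4, it hardly depended on DMSO replicate 1, without which it was -0.32.

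**Figure D1:**
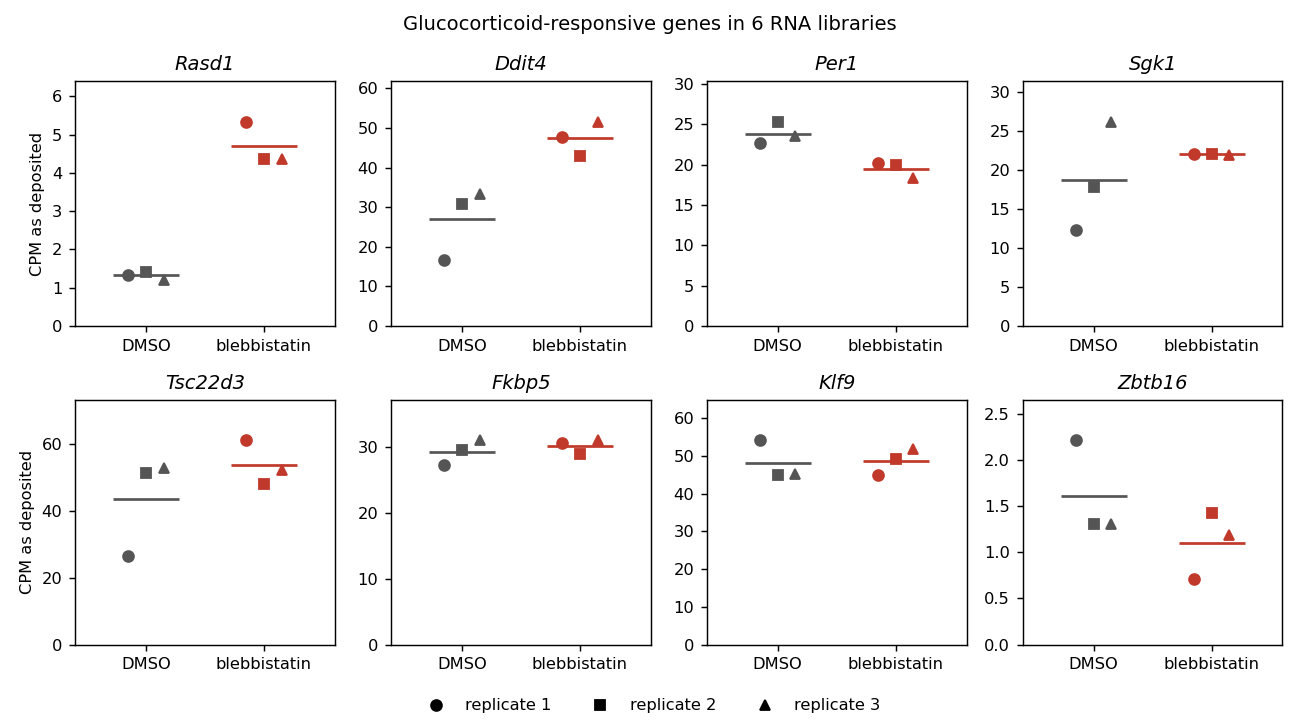
CPM as deposited (vertical axis, starting at 0) of the 8 measured genes in each DMSO (grey) and blebbistatin (red) library, with symbols for the replicate numbers and a bar at the mean of each group. The groups are separate for Rasd1, Ddit4 and, in the other direction, Per1, and DMSO replicate 1 (grey circle) is the low control of Ddit4, Sgk1 and Tsc22d3 and the high one of Klf9 and Zbtb16.

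Sgk1 and Tsc22d3 are direct targets in most cells that carry the receptor: Sgk1 is a kinase of ion transport and survival, and Tsc22d3 encodes the leucine zipper protein GILZ, an inhibitor of inflammatory transcription. Sgk1 was at 12.3, 17.9 and 26.2 CPM with DMSO and at 22.1, 22.1 and 22.0 CPM with blebbistatin. The treated libraries were nearly equal and lay inside the wide range of the controls. Its log2 fold change was 0.26 ± 0.23 (SE) with all libraries and 0.03 ± 0.17 without DMSO replicate 1. Without DMSO replicate 3, the highest control, it was 0.50 ± 0.18 and the groups were separate, so single controls decided its size. Tsc22d3 was at 26.5, 51.4 and 53.0 CPM with DMSO and at 61.2, 48.2 and 52.3 CPM with blebbistatin. The treated libraries lay on both sides of DMSO replicates 2 and 3, and DMSO replicate 1 was below all of them. Its log2 fold change was 0.32 ± 0.24 (SE), and 0.04 ± 0.13 without DMSO replicate 1.

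Fkbp5 encodes a co-chaperone that lowers the receptor's affinity for hormone and is among the most widely used readouts of receptor activity. It was at 27.2, 29.5 and 31.0 CPM with DMSO and at 30.6, 28.9 and 31.0 CPM with blebbistatin. The groups overlapped almost completely, and the log2 fold change was 0.009 ± 0.11 (SE), from -0.008 to 0.029 with single libraries left out. Only 0.5 h of treatment was sampled, and receptor activity was not tested. Its means were 29.6 ± 0.642 and 29.8 ± 0.763 CPM (SD, n = 3 each). The RefSeq Fkbp5 locus overlaps 1 other gene, a tRNA.

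Klf9 and Zbtb16 are transcription factors induced by glucocorticoids. Klf9 was at 54.2, 45.0 and 45.4 CPM with DMSO and at 45.0, 49.3 and 52.0 CPM with blebbistatin. The ranges overlapped, and its log2 fold change of -0.02 ± 0.15 (SE) took the other sign, 0.11 ± 0.12, without DMSO replicate 1. Klf9 overlaps 2 other protein-coding models in RefSeq, so its reads may be shared. Zbtb16, the weakly expressed PLZF gene, was at 2.22, 1.31 and 1.31 CPM with DMSO and at 0.712, 1.42 and 1.18 CPM with blebbistatin, from 44 to 134 reads. Its ranges overlapped, with a log2 fold change of -0.55 ± 0.38 (SE), and -0.27 ± 0.37 without DMSO replicate 1. It overlaps 1 long noncoding RNA, and without a stated strand setting their reads cannot be told apart.

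Across the 8 genes, all of which were above the filter in every library, 2 had treated libraries above every control (Rasd1 and Ddit4) and 1 below (Per1). Over all 15204 genes tested the groups were separate with higher treated values for 3.24% and with lower ones for 2.89%. Since the list was drawn up with this comparison in view, nothing is read from the count. The median log2 fold change was 0.13 for the 8 genes, and -0.005 for the 6 other than Rasd1 and Ddit4, 3 of them positive and 3 negative. It was 0.004 over all genes tested. Without DMSO replicate 1 the median of those 6 was 0.016.

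**Figure D2:**
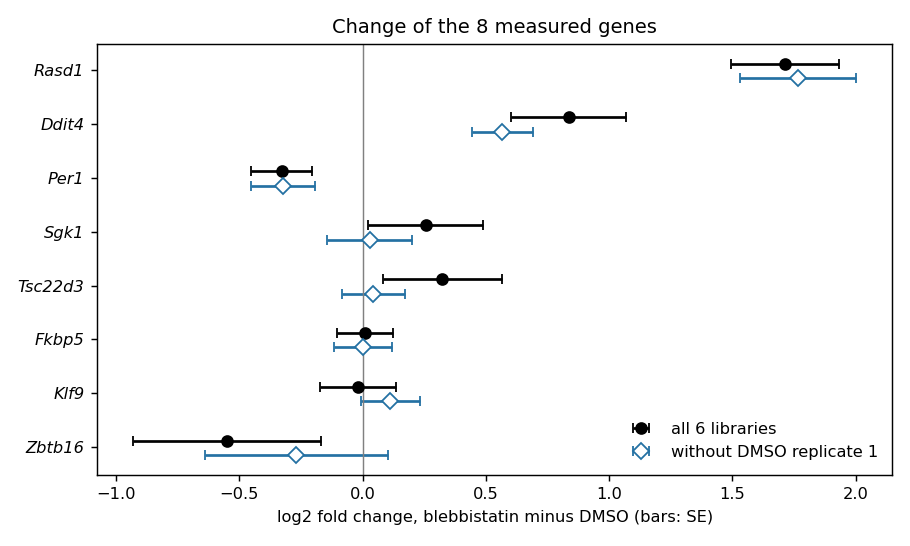
Log2 fold change (horizontal axis, blebbistatin minus DMSO, bars are SE) of each gene with all 6 libraries (black circles) and without DMSO replicate 1 (open blue diamonds). Rasd1 stays near 1.7 in both, Ddit4 goes from 0.84 to 0.57, and Sgk1 and Tsc22d3 go from 0.26 and 0.32 to 0.03 and 0.04.

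Within the control group the genes fell into different patterns. Compared with the mean of the other 2 controls, DMSO replicate 1 differed on the log2 scale by -0.84 for Tsc22d3, -0.81 for Ddit4 and -0.68 for Sgk1. It differed by 0.39 for Klf9 and 0.84 for Zbtb16, and by no more than 0.15 for Rasd1, Per1 and Fkbp5. Such shifts were common in that library: 13.9% of all genes tested were shifted down as far as Ddit4, and 8.11% were shifted up as far as Zbtb16. The summed level of 11 macrophage and leukocyte markers was also low there, at 100.4 CPM against 174.1 to 205.2 CPM in the other 5 libraries, but not for each gene: Lyz2, a lysozyme of macrophages, was at 14.5 CPM against 54.4 to 78.3 CPM, while the receptor gene Csf1r was at 25 CPM against 23.3 to 26.6 CPM and Cd74, of antigen presentation, was highest there. Red blood cell markers summed high there, with 185.3 CPM over 5 genes against 60.3 to 69.7 CPM, but Slc4a1 lay within the range of the others. The sum of 7 endothelial markers was also high there, with 230.6 against 161.3 to 181.9 CPM, but not each gene. Flt1 was at 120 against 74.48 to 83.51 CPM, Vwf at 38.85 against 15.32 to 23.95 CPM, and Kdr was slightly higher. Cdh5 was lowest there, at 13.8 against 18.01 to 22.41 CPM, and Tek, Tie1 and Emcn lay within the range of the other 5 libraries. None of these markers was at 0 in any library. What set this library apart, and the part of these markers in the Ddit4, Sgk1 and Tsc22d3 values, was not tested.

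The genes whose pattern over the 6 libraries was closest to Rasd1 were found by the root mean square difference of log2 values after each gene's own mean was taken away, among 10844 genes with a symbol and at least moderate level. They were Capns1, the small calpain subunit (0.293), Hes1, a Notch-regulated repressor (0.481), Acat2l1 (0.503), Snrpn, a small ribonucleoprotein component (0.546), and Ddit4 itself (0.562). Among all 15203 other tested genes Ddit4 was at rank 57. The remaining measured members were farther from Rasd1, from Tsc22d3 at rank 1048 to Zbtb16 at rank 14291.

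Seen from Ddit4, the closest genes were Osgin1 (0.09), an oxidative stress gene, Bambi (0.113), a decoy receptor of the TGF-beta family, the nuclear receptor gene Nr2f1 (0.124), the sialidase gene Neu3 (0.155) and the Polycomb gene Cbx2 (0.156). All 5 shared with Ddit4 a low DMSO replicate 1 and treated libraries above the controls. Tsc22d3 was at rank 233 and Sgk1 at rank 785 from Ddit4, while Rasd1, which differed more between the groups and was not low in DMSO replicate 1, was at rank 7835. All distances come from the same 6 libraries that put Rasd1 and Ddit4 on the list, and they describe these libraries only.

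**Figure D3:**
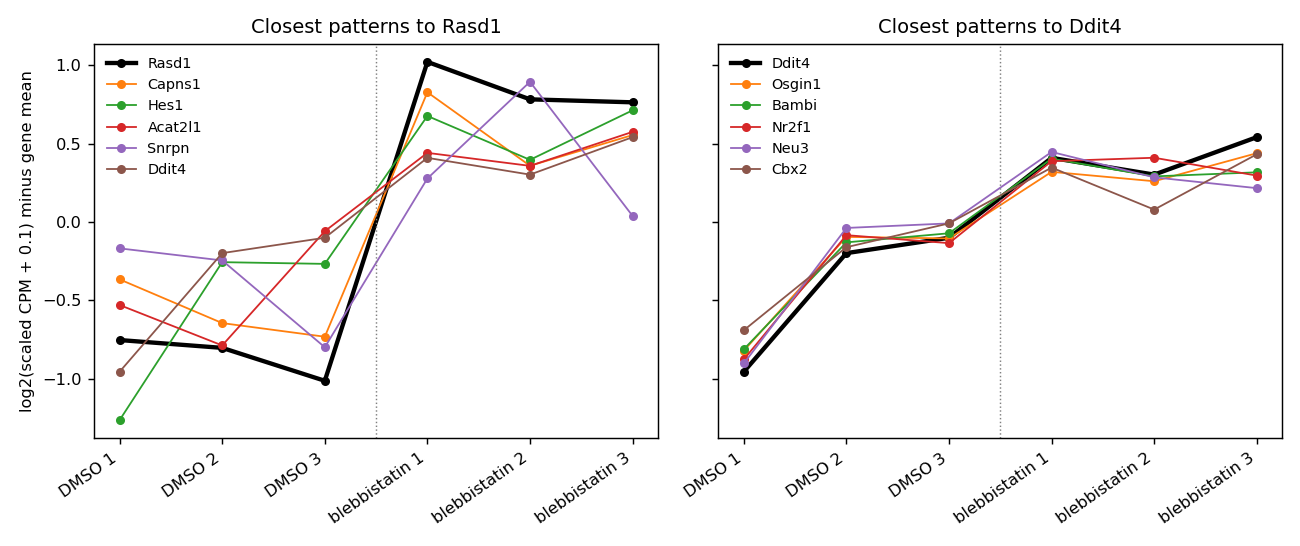
Log2(scaled CPM + 0.1) minus each gene's mean (vertical axis) in the 6 libraries for Rasd1 (left, black) and Ddit4 (right, black) with the 5 closest genes each. Lines only join the points of 1 gene, and the dotted line divides DMSO from blebbistatin. The Ddit4 neighbours share its low DMSO replicate 1, which Rasd1 lacks.

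The wider pathway was read from lists of receptor, chaperone and target genes. Their 96 names matched 90 rows beside the members, and 86 of these were tested. Limma called 0 of the 86 at an adjusted p under 0.05, where 0.0197% of all genes were called, with 1 higher and 3 lower at an unadjusted p under 0.05, against 0.743% and 0.776% of all genes. The median log2 fold change was -0.058, with 31 positive and 55 negative, and it was -0.003 without DMSO replicate 1. All genes tested had 7703 positive and 7501 negative. The 5 lists of targets alone, without receptor, prereceptor, chaperone and coregulator genes, had 28 positive and 35 negative. On the scaled values the treated libraries were all above the controls for 1 of the 86 (1.16%) and all below them for 5 (5.81%), against 3.24% and 2.89% of all genes. These lists were drawn up with earlier results of these data known, so nothing is read from their counts.

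Cebpb, a transcription factor of the acute phase and stress response, was the gene with higher treated libraries. It was at 50.7, 79.3 and 70.1 CPM with DMSO and at 83.4, 97.6 and 124.6 CPM with blebbistatin. The lowest treated library was just above the highest control. Its log2 fold change was 0.58 ± 0.20 (SE; limma adjusted p = 0.991), and 0.44 without DMSO replicate 1. Its relative Cebpd, a more direct glucocorticoid target, had a log2 fold change of -0.03 ± 0.19, and Klf15, a receptor target of heart and skeletal muscle, one of 0.34 ± 0.20 with overlapping groups. Klf4 was at -0.22 ± 0.13.

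Dusp1, Errfi1 and Edn1, which also answer to growth factors or other hormones, were among the 5 genes with lower treated libraries. Dusp1, a MAP kinase phosphatase that glucocorticoids raise in many cells, was at 89.2, 140.8 and 121.4 CPM with DMSO and at 60.1, 62.4 and 68.1 CPM with blebbistatin. The treated libraries were close together and well below the lowest control. Its log2 fold change was -0.90 ± 0.16 (SE; limma adjusted p = 0.803). Errfi1, a feedback inhibitor of the EGF receptor family, had a log2 fold change of -0.48 ± 0.14, and Edn1, the endothelin 1 gene, one of -0.87 ± 0.27 (limma adjusted p = 0.991 for both). Edn1 was at 34.5 CPM in DMSO replicate 1, near the treated range of 28.3 to 34.5 CPM, and at 67.3 and 80.5 CPM in the other controls, so its groups were separate only after scaling.

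Genes upstream of the targets gave no limma call, where 0.0197% of all genes were called, and nothing is read from that count. Nr3c2, the mineralocorticoid receptor gene, which also binds glucocorticoids, was at 6.97 ± 1.148 CPM in the controls and 6.20 ± 1.93 CPM in the treated libraries (SD, n = 3 each). Hsd11b1, whose enzyme regenerates active hormone inside cells, was at 22.5 ± 7.59 and 25.2 ± 2.30 CPM, and Hsd11b2, whose enzyme inactivates it, was at the edge of measurement with 0.360 ± 0.109 and 0.216 ± 0.119 CPM. Of 18 chaperone and coregulator genes 16 had a negative log2 fold change, and the median of -0.14 became 0.025 without DMSO replicate 1. None separated the groups, against 3.24% higher and 2.89% lower of all genes. Stip1, an organizer of the chaperone complex, had -0.14 ± 0.12, and the coactivator genes Med1 and Ncoa3 had -0.20 ± 0.19 and -0.25 ± 0.24.

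Metabolic, secreted and cell cycle targets had medians near 0. Limma called 0 of them at an adjusted p under 0.05, where 0.0197% of all genes were called. At an unadjusted p under 0.05 there were 0, against 0.743% higher and 0.776% lower of all genes. With so few genes, nothing is read from these counts. Over 16 metabolic and muscle targets the median log2 fold change was 0.004. No gene separated the groups, against 3.24% higher and 2.89% lower of all genes. Pdk4, which restrains glucose oxidation, had -0.11 ± 0.23, the ubiquitin ligase genes of muscle atrophy Fbxo32 and Trim63 had -0.25 ± 0.27 and 0.14 ± 0.20, and Glul, glutamine synthetase, and Angptl4, a lipase inhibitor, had -0.10 ± 0.12 and -0.24 ± 0.21. Over 12 anti-inflammatory and secreted targets the median was -0.016, with 0.23 ± 0.17 for Gpx3, a secreted peroxidase, and -0.28 ± 0.25 for Tnfaip3, an inhibitor of NF-kB signalling. Over 6 cell cycle and survival targets it was 0.009, with -0.14 ± 0.16 for the CDK inhibitor gene Cdkn1a, -0.23 ± 0.32 for Cdkn1c and 0.13 ± 0.18 for Myc.

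**Figure D4:**
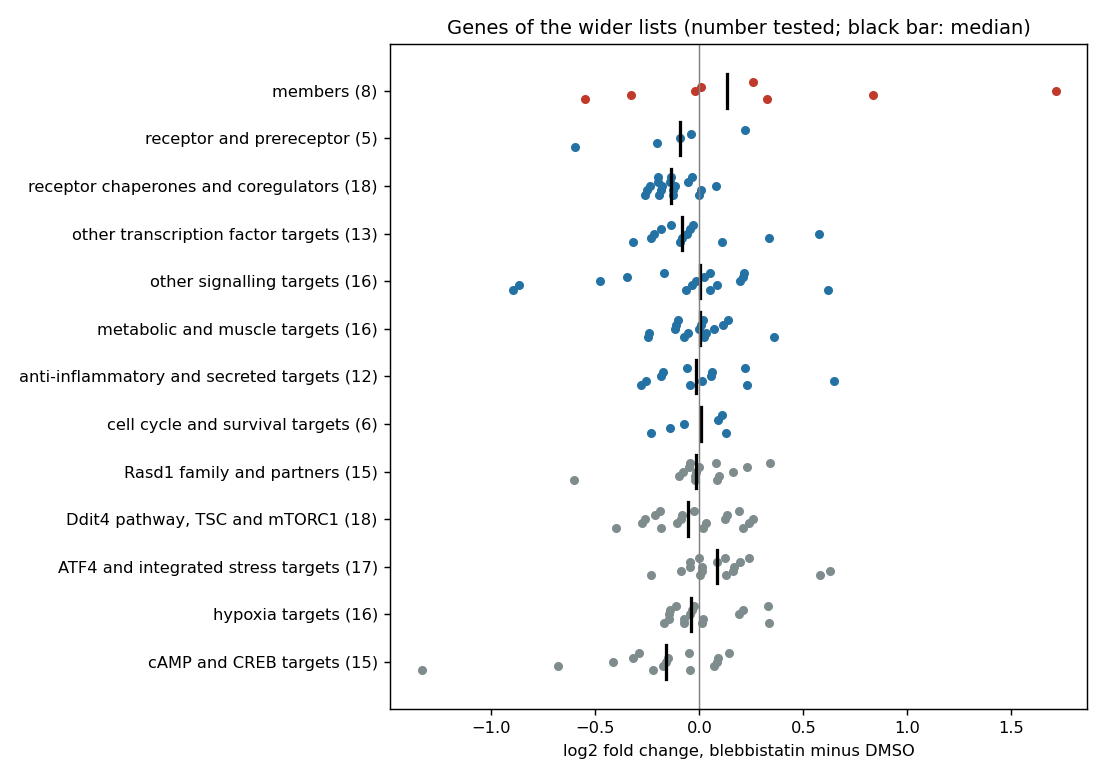
Log2 fold change (horizontal axis, blebbistatin minus DMSO) of every tested gene of the 7 glucocorticoid lists (blue) and 5 lists of partners and other inputs (grey), with the 8 examined genes at the top (red, labelled members). Black bars are medians and numbers in brackets count genes. Rasd1, at 1.71, lies to the right of every gene of the other lists, and their medians lie between -0.16 and 0.086.

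The partners of Rasd1 and Ddit4 and genes of other inputs known to act on them were read in the same way. Their 84 names matched 82 rows, of which 81 were tested. Limma called 0 of the 81 at an adjusted p under 0.05, where 0.0197% of all genes were called. At an unadjusted p under 0.05 in limma 0 were higher and 1 lower, against 0.743% and 0.776% of all genes. The treated libraries were all above the controls for 1 gene (1.23%) and all below for 3 (3.7%), against 3.24% and 2.89% of all genes. Because these lists too were drawn up with earlier results of these data known, nothing is read from their counts. The median log2 fold change was -0.022.

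Among 15 relatives and partners of Rasd1 the median was -0.017. Rasd2, its closest relative, was at 0.493 ± 0.138 and 0.291 ± 0.0894 CPM (SD, n = 3 each), with a log2 fold change of -0.60 ± 0.40, the opposite sign to Rasd1, with overlapping groups. Rrad, another Ras-like GTPase, which restrains cardiac calcium channels, had 0.34 ± 0.24. Adcy6, a cardiac adenylyl cyclase, had -0.10 ± 0.11 with all treated libraries below the controls.

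Among 18 genes of the TSC and mTORC1 pathway, on which the Ddit4 protein acts, the median was -0.056. Tsc2, whose complex Ddit4 releases to shut off mTORC1, had 0.02 ± 0.26. Tsc1 and Rictor had -0.28 ± 0.18 and -0.40 ± 0.26 with overlapping groups, and Mlst8, a shared mTOR subunit, had -0.19 ± 0.13 with all treated libraries below the controls.

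Over 17 ATF4 and integrated stress genes the median was 0.086, with 12 positive and 5 negative. Ddit3, which encodes the stress factor CHOP, had 0.63 ± 0.43, but it was at 7.41 CPM in DMSO replicate 1 and at 18.66 and 27.96 CPM in the other controls, against 18.5 to 32.4 CPM with blebbistatin, and was 0.14 without that replicate. Atf4 itself had 0.13 ± 0.18, Atf5 0.16 ± 0.13 and Cth, an enzyme of cysteine synthesis, 0.24 ± 0.21. Without DMSO replicate 1 the list's median was 0.013. Over 16 hypoxia genes the median was -0.041 with all libraries and -0.051 without DMSO replicate 1. Egln1, an oxygen-sensing prolyl hydroxylase gene, was at 13.7, 18.04 and 20.7 CPM with DMSO and at 21.2, 20.3 and 25.7 CPM with blebbistatin, with a log2 fold change of 0.33 ± 0.17 and groups separate after scaling. Vegfa, a standard hypoxia target, had 0.21 ± 0.33 and the sign turned without DMSO replicate 1 (-0.18). Ndrg1 and Bnip3l had -0.17 ± 0.13 and -0.15 ± 0.13.

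Over 15 cAMP and CREB genes the median was -0.16, and -0.065 without DMSO replicate 1. Fos was at 26.9, 26.6 and 27.7 CPM with DMSO and at 10.3, 11.6 and 11.1 CPM with blebbistatin, and its log2 fold change of -1.33 ± 0.14 (limma adjusted p = 0.0593) was the lowest of any listed gene. Nr4a3 had -0.68 ± 0.31, the CREB coactivator gene Crtc1 -0.32 ± 0.20, and Sik1, a kinase gene that cAMP induces, -0.05 ± 0.13 with overlapping groups. Rasd1 and Per1, which respond to glucocorticoid, cAMP and other signals, had log2 fold changes of 1.71 and -0.33 in these libraries. The part of any of these signals was not tested.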

How the data were processed

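RNA of 6 libraries, 3 with DMSO and 3 with blebbistatin, was compared. Values are CPM as the authors deposited them, each column summing to 1000000, in a file named for counts. The submitters' processing notes list the read trimmer Trim Galore, the aligners HISAT2 2.1.0 and BWA, StringTie 1.3.4, MACS2 2.1.0, edgeR 3.20.9 and build rn6, for RNA and chromatin samples alike and without roles. Annotation, counting and strand setting are not given in the sources used here. In each library 99% of values above 0 were whole multiples, within 0.02, of 1 step taken as 1 read. Because the rest were fractions, no count test was run.

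CPM were divided by TMM factors (unweighted, trims 0.3 and 0.05, 0.928 to 1.02 in the DMSO libraries and 0.997 to 1.03 in the treated), and log2(value + 0.1) was tested with limma 3.58.1 in R 4.3.3 (trend and robust settings, two-sided, no block, Benjamini-Hochberg adjusted p under 0.05). Genes needed 0.162 CPM (10 reads at the median depth) in 3 libraries, which left 15204 of 19425 genes above 0. The pseudocount understates changes of low genes. The steps were tested on simulated data.

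The members and lists were chosen with earlier results of these data known. Named genes are the members, a fixed set, the 3 of each list with the lowest p, and the 5 genes closest to Rasd1 and to Ddit4. The values of 2 listed genes are not reported here. Promoters came from RefSeq (GRCr8), matched by symbol, and its gene table served for names and overlaps only. CPM were not compared between genes, since no transcript lengths were used.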

Additional observations from a re-analysis of the deposited data

How the results depend on the processing

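Of the 16 alternatives, restricting the test to genes above 0 in every library was chosen after seeing the data. It left 0 genes called over all genes in place of 3 (216 at an unadjusted p under 0.05 in limma). It drops both lower calls by construction, and the cause of losing the 1 higher call was not tested. All 16 left 0 genes of the wider list and 0 of the partner lists called. Since no alternative called more than 4 genes over all genes, nothing is read from this. Scaling, filter, robust=FALSE and the replicate block left Rasd1 between 1.71 and 1.75, while a pseudocount of 0.5 or 1 CPM gave 1.48 and 1.26, as a larger constant shrinks low genes. Without single libraries 2 to 4 genes were called over all genes, 2 to 4 higher and 0 lower when a DMSO library was left out and 0 to 1 higher and 3 lower when a blebbistatin library was. Without DMSO replicate 3 the genes at an unadjusted p under 0.05 went from 231 to 918, those of the wider list from 4 to 8 and those of the partner lists from 1 to 6. Rasd1 ran from 1.63 to 1.77 and Ddit4 from 0.57 to 1.00. Sgk1 also had treated libraries above the controls without DMSO replicate 3, which made 3 such members in place of 2, and Zbtb16 had them below without blebbistatin replicate 2. The sign was kept by Rasd1, Ddit4, Per1, Sgk1, Tsc22d3 and Zbtb16 in all 16 alternatives, by Fkbp5 in 14 and by Klf9 in 13. With the replicate block 2 genes passed over all genes and no call on a list changed. The labels give only a replicate number, so the numbers were not taken as pairs. For replicate numbers 1, 2 and 3 the deviations from the group mean correlated between DMSO and blebbistatin at -0.289, 0.054 and -0.092. With 3 libraries per group these values cannot decide whether the libraries were paired. At the depth of these libraries Rasd1 and Zbtb16 rest on the fewest reads of the 8.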

Other observations

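Some genes linked to glucocorticoids, chosen after their values were seen, varied among the controls. Ptgds, a prostaglandin D synthase gene, was at 2.12 CPM in DMSO replicate 1, at 10.33 and 11.95 CPM in the other controls and at 14.0, 7.40 and 10.8 CPM with blebbistatin. Hsd11b1 was at 12.9 CPM in DMSO replicate 1 and between 22.9 and 28.7 CPM in the other 5 libraries. Scnn1a, a sodium channel subunit gene, was at 0.149 CPM in DMSO replicate 1 and between 0.550 and 1.23 CPM in the others. Arrdc2, an arrestin domain gene, was low in 2 controls (1.504 and 1.928 CPM) and at 3.82 CPM in the third, against 4.22, 2.67 and 4.07 CPM with blebbistatin.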
